A study of Mus musculus with 24 samples.

Results

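The 10 genes described here are the transcription factor NRF2 (Nfe2l2), its repressor (Keap1) and 8 antioxidant genes known as NRF2 targets: Gclc, Gclm, Txnrd1, Srxn1, Prdx1, Nqo1, Hmox1 and G6pdx. They were chosen by name as members of the pathway, with earlier results of these data known, so counts over the 10 are descriptions and not independent evidence. All 10 were among the 24537 genes of the deposited table and passed the filter on low counts. Expression was measured by RNA-seq in 24 libraries of in vitro activated mouse CD8+ T cells. The 8 groups of 3 libraries were Control, LCA (lithocholic acid), IsoLCA, IsoAlloLCA, DehydroLCA and UDCA (ursodeoxycholic acid) at 50 µM each, and the taurine-conjugated acids TCA (taurocholic acid) and TCDCA (taurochenodeoxycholic acid) at 100 µM each. Exposure lasted 24 h by the series' description and overnight by the treatment protocol, and every group, Control included, was activated. The sources used here do not give the mouse strain, sex or age, the means of activation or what the Control cells received. Neither do the labels state whether the replicates of a group were separate cultures or animals, so a p-value here reflects the variation among these libraries alone, and that variation may be technical.

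NRF2 is made continuously and, in unstressed cells, is bound by KEAP1 and sent for degradation. Electrophiles and oxidants modify KEAP1, NRF2 then accumulates in the nucleus, pairs with a small MAF protein and binds antioxidant response elements near genes for glutathione synthesis, the thioredoxin system, quinone and haem breakdown, and NADPH supply. Much of this control acts on the NRF2 protein, which RNA-seq does not measure. Activated T cells divide quickly, produce oxidants and depend on glutathione for growth.

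The core of an antioxidant response element, written here as TGACNNNGC, was looked for on both strands of RefSeq promoter windows of the mouse assembly GRCm38.p6, from 250 bases before to 50 bases after each start site. The windows of 8 of the 10 genes were in the table used, Hmox1 and Gclc not being among them. The core was in a window of 6 of those 8 genes, 6 of their 10 windows, against 12.4% of all 32851 windows. The 6 sequences are shown because they match the core of the element that NRF2 binds, each as 29 bases with the core in capitals:
Nfe2l2: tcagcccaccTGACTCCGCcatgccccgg (chr2:75704885-75704913, minus strand, core 232 to 240 bases before the start)
Gclm: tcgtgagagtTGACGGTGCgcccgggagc (chr3:122245413-122245441, minus strand, core 126 to 134 bases before the start)
Txnrd1: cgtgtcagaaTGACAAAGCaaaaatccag (chr10:82859104-82859132, minus strand, core 84 to 92 bases before the start)
Srxn1: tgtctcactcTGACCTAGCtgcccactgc (chr2:152105542-152105570, minus strand, core at bases 29 to 37 after the start)
Prdx1: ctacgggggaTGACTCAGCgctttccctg (chr4:116685456-116685484, minus strand, core 125 to 133 bases before the start)
G6pdx: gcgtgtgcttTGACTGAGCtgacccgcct (chrX:74428919-74428947, plus strand, core 49 to 57 bases before the start)
These distances are from RefSeq starts. For Gclm and Txnrd1 the start used is also the start of the transcript in the deposited table. For G6pdx the transcript in the deposited table spans other bases. The G6pdx core lies inside the table's span of that gene, whose RefSeq span ends at base 74428880. The Prdx1 core also holds TGACTCA, the AP-1 motif, which overlaps the NRF2 motif in part and was in 5.20% of all windows. No core was found in the Keap1 and Nqo1 windows, and 1 of 3 Txnrd1 windows held it. A match is a description of letters and not a measured binding site.

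Counts in genes ranged from 25998051 to 41024340.5 per library (median 32852325), which was 75.6% to 84.7% of the library total in the file header (the exon share). The CD8 T cell markers were high in every library (Cd8a 557 to 774 CPM, counts scaled to a common library total), and Cd4 stayed between 0.281 and 1.16 CPM. The other 2 genes of the CD4 T cell list were present in every library, Foxp3 at 7.74 to 11.1 CPM and Zbtb7b at 33.0 to 56.8 CPM, and the list's sum was 60.3 to 65.8 CPM with LCA against 48.2 to 52.4 CPM in Control; its part in the LCA results was not tested. Of 10 macrophage and monocyte markers 9 never exceeded 1 CPM, Adgre1 was at 0 in 17 of 24 libraries, and 6 of 6 granulocyte and 7 of 7 erythroid markers never exceeded 1 CPM. The IsoAlloLCA libraries differed from Control in several such measures: an exon share of 78.3% ± 2.78 (SD, n = 3) against 82.6% ± 1.37 in Control, a summed macrophage marker level of 5.41 to 7.58 CPM against 2.68 to 3.47, which is mostly Cd68, and a summed dendritic cell marker level of 4.59 to 6.80 CPM against 1.61 to 2.01. Of the 6 dendritic cell markers 4 never exceeded 1 CPM in any library, and the others, Zbtb46 and Xcr1, reached at most 2.95 and 3.16 CPM. The NK cell marker sum of the IsoAlloLCA libraries, which is mostly Eomes, was lower (14.9 to 17.3 CPM against 26.3 to 27.6). Their CD8 T cell marker sum was higher (3512 to 3843 CPM against 3175 to 3260). These differences go with every IsoAlloLCA result below, and their part in those results was not tested. In bulk RNA, fewer cells that express a gene and less of its RNA per cell cannot be told apart.

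LCA had the highest level of most of the 10 genes. All 3 LCA libraries lay above all 21 other libraries for 6 of the 10 genes, Nfe2l2, Nqo1, Hmox1, Gclc, Gclm and Srxn1, where 3.93% of all tested genes showed this. Against Control, 7 of the 10 rose and 1 fell with LCA, while 36.5% of 13044 tested genes were called in either direction, 17.7% higher and 18.8% lower. A gene is called here when its adjusted p in edgeR's quasi-likelihood test, fitted on all 24 libraries, is below 0.05. The median log2 change of the 10 genes was 0.40, against 0.01 over all tested genes. The LCA count stayed at 8 called whichever single library was left out.

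**Figure D1:**
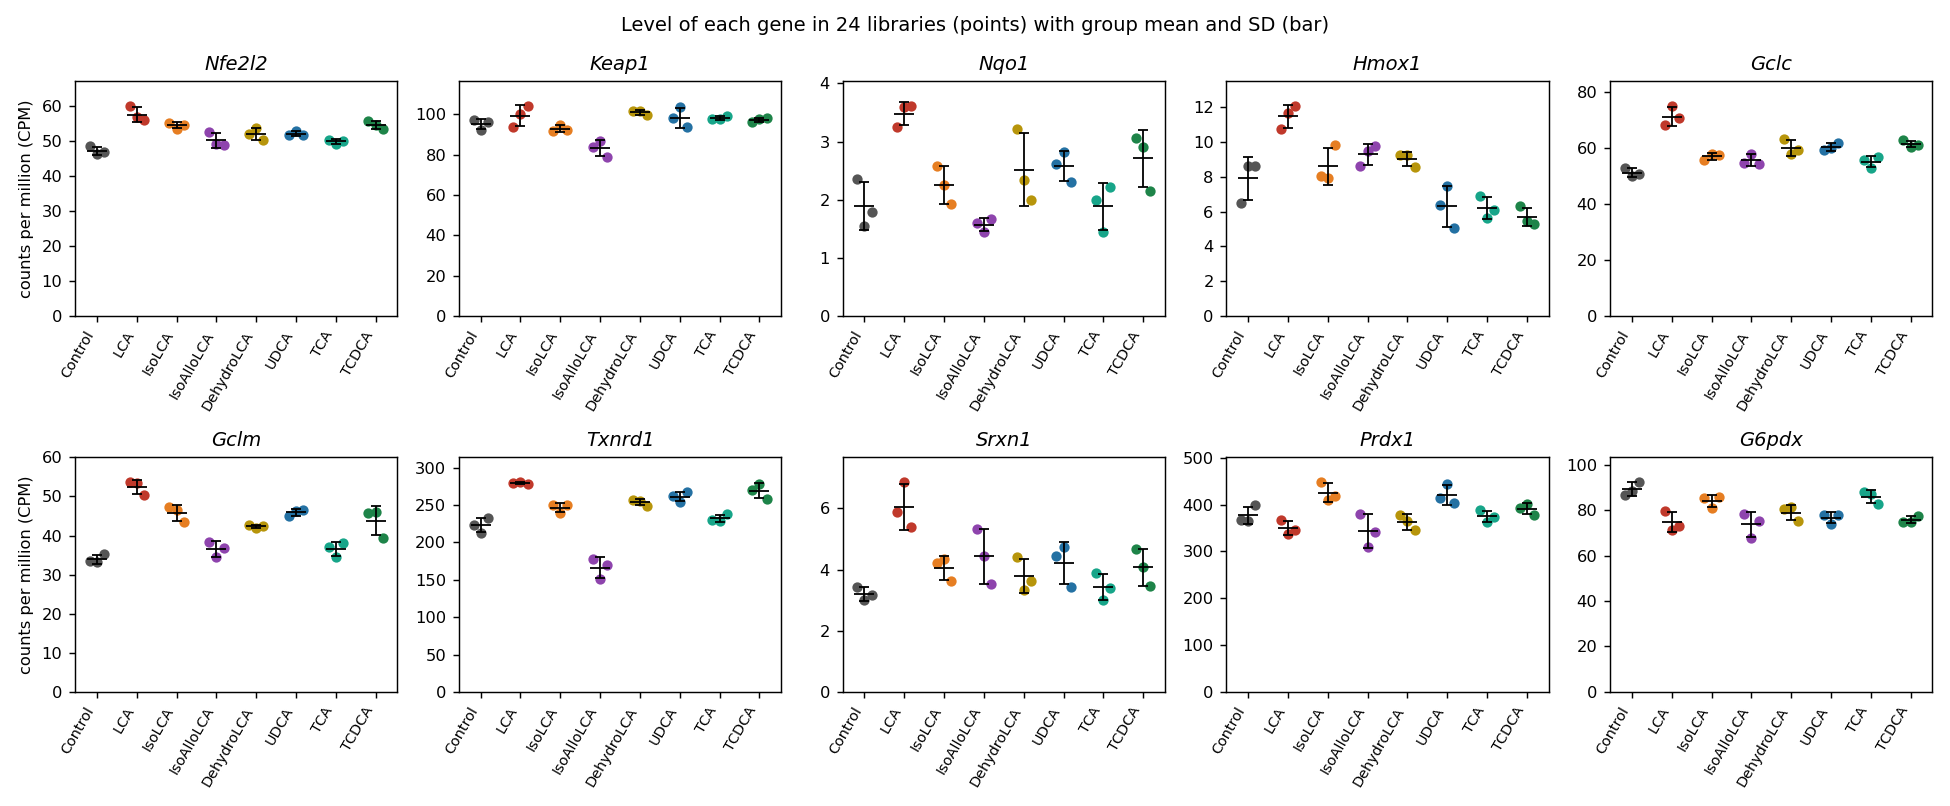
Level of each of the 10 genes in CPM (vertical axes, linear, starting at 0) in the 8 groups. Points are single libraries, the long bar is the group mean and the whiskers are 1 SD (n = 3). The LCA points sit above all others for Nfe2l2, Nqo1, Hmox1, Gclc, Gclm and Srxn1, and the IsoAlloLCA points are the lowest for Txnrd1 and Keap1.

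Nfe2l2, the gene of NRF2 itself (NM_010902, mm10 chr2:75675513-75704663, minus strand), was higher with 5 of the 7 acids, by small amounts. Its levels were 48.4, 46.2 and 46.9 CPM in Control and 59.8, 56.7 and 55.8 CPM with LCA. TCDCA gave 55.5, 54.5 and 53.3 CPM, IsoLCA 55.1, 53.4 and 54.5 CPM, UDCA 51.7, 52.7 and 51.6 CPM, and DehydroLCA 51.8, 53.6 and 50.3 CPM. With all 7 acids every library exceeded every Control library, including IsoAlloLCA and TCA, which were not called. Nfe2l2 rose 1.22-fold with LCA (log2 0.29 ± 0.04 SE, edgeR adjusted p = 1.95e-06), and by log2 0.21 ± 0.04 with both TCDCA (adjusted p = 0.000495) and IsoLCA (adjusted p = 0.000528). The rises with UDCA (log2 0.14 ± 0.04, adjusted p = 0.0102) and DehydroLCA (log2 0.14 ± 0.04, adjusted p = 0.0285) were less secure. The UDCA call was lost without Control replicate 2 (log2 0.13) or UDCA replicate 2 (0.12) and without the filter on low counts. The DehydroLCA call was lost without Control replicate 2 (0.12) or 3 (0.13) or DehydroLCA replicate 1 (0.14) or 2 (0.11), with only the 6 libraries compared (0.13), without the filter (0.13) and with DESeq2 (0.13). IsoAlloLCA (52.5, 49.1 and 48.7 CPM, log2 0.09, adjusted p = 0.0513) and TCA (50.3, 49.1 and 50.0 CPM, log2 0.08, adjusted p = 0.573) did not pass. The IsoAlloLCA difference passed without IsoAlloLCA replicate 2 (0.10) or 3 (0.11), and with the replicate number added to the fit as a block (0.09).

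Keap1, which encodes the repressor (NM_016679, mm10 chr9:21229730-21239332, minus strand), differed from Control with 1 acid, IsoAlloLCA. Its levels were 96.9, 92.2 and 96.0 CPM in Control and 83.9, 86.6 and 78.8 CPM with IsoAlloLCA, where all 3 libraries lay below every Control library. It fell to 0.876 of Control (log2 -0.19 ± 0.04, edgeR adjusted p = 0.000278). With the other acids its log2 difference from Control ran from -0.03 (IsoLCA) to 0.09 (DehydroLCA), and none passed. The antisense gene Gm16754 shares 510 exon bases with Keap1 (11.3% of its exon bases), and with no strand setting stated for the counting, reads of both genes cannot be told apart there.

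Gclc and Gclm encode the catalytic and modifier subunits of glutamate-cysteine ligase, which carries out the rate-limiting step of glutathione synthesis. Gclc (NM_010295, mm10 chr9:77754535-77794489, plus strand) rose with 6 of the 7 acids and Gclm (NM_008129, mm10 chr3:122245557-122267215, plus strand) with 5. Gclm levels were 33.5, 33.1 and 35.2 CPM in Control and 53.7, 53.3 and 50.5 CPM with LCA. UDCA gave 44.9, 46.4 and 46.5 CPM, IsoLCA 47.3, 46.4 and 43.3 CPM, TCDCA 45.8, 45.9 and 39.4 CPM, and DehydroLCA 42.6, 41.9 and 42.6 CPM. All 15 of these libraries were above the highest Control library. Gclm rose 1.55-fold with LCA (log2 0.63 ± 0.05, edgeR adjusted p = 1.34e-09), 1.35-fold with UDCA (adjusted p = 2.18e-06), 1.34-fold with IsoLCA (adjusted p = 2.91e-06), 1.29-fold with TCDCA (adjusted p = 3.95e-05) and 1.25-fold with DehydroLCA (adjusted p = 0.000484). IsoAlloLCA (38.3, 34.5 and 36.8 CPM) and TCA (37.0, 34.6 and 38.1 CPM) overlapped Control, each at log2 0.11 ± 0.05 and not called. IsoAlloLCA passed without its replicate 2 (0.15).

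Gclc was at 53.1, 50.0 and 51.0 CPM in Control and at 68.2, 75.1 and 70.7 CPM with LCA, a 1.39-fold rise (log2 0.47 ± 0.04, edgeR adjusted p = 4.31e-09). Levels were 62.9, 60.5 and 61.2 CPM with TCDCA, 59.2, 60.3 and 62.1 CPM with UDCA, and 63.4, 57.9 and 59.3 CPM with DehydroLCA. These 9 libraries lay above Control and below LCA, with rises of log2 0.26 ± 0.04 (adjusted p = 0.000158), 0.24 ± 0.04 (adjusted p = 0.000331) and 0.23 ± 0.04 (adjusted p = 0.00144). The IsoLCA rise (55.8, 58.1 and 57.6 CPM, log2 0.15 ± 0.04, edgeR adjusted p = 0.0214) was lost with only the 6 libraries compared (0.15), without Control replicate 2 (0.14) or 3 (0.14), and without IsoLCA replicate 2 (0.14) or 3 (0.15). The IsoAlloLCA rise (54.8, 58.2 and 54.4 CPM, log2 0.12 ± 0.04, edgeR adjusted p = 0.0207) was lost with DESeq2 (0.10), with its size factors in edgeR (0.10), without the filter (0.10), with only the 6 libraries compared (0.12), without Control replicate 2 (0.10) or 3 (0.10), and without IsoAlloLCA replicate 2 (0.09). TCA libraries were at 55.9, 53.0 and 57.0 CPM (log2 0.11, adjusted p = 0.446).

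Txnrd1, Srxn1 and Prdx1 belong to the thioredoxin system: thioredoxin reductase recharges thioredoxin with NADPH, peroxiredoxin PRDX1 reduces peroxides, and sulfiredoxin repairs peroxiredoxins that have been over-oxidised. Txnrd1 moved in both directions. It rose with 5 acids and fell with IsoAlloLCA. Txnrd1 (NM_001042513, mm10 chr10:82859206-82897724, plus strand) was at 224, 213 and 232 CPM in Control, at 279.5, 281 and 278 CPM with LCA, and at 178, 151 and 169.8 CPM with IsoAlloLCA. The 3 groups did not overlap, LCA being highest and IsoAlloLCA lowest. The fold over Control was 1.25 with LCA (log2 0.32 ± 0.04, edgeR adjusted p = 2.90e-06) and 0.744 with IsoAlloLCA (log2 -0.43 ± 0.04, adjusted p = 1.15e-08). TCDCA (271, 279 and 258 CPM, log2 0.27 ± 0.04, adjusted p = 0.000130) and UDCA (262, 255 and 268 CPM, log2 0.23 ± 0.04, adjusted p = 0.000570) raised it as well. DehydroLCA (257, 255 and 249 CPM) gave log2 0.19 ± 0.04 (adjusted p = 0.0106), lost without Control replicate 2 (0.15) or DehydroLCA replicate 1 (0.18). IsoLCA (250.2, 240.1 and 249.9 CPM) gave log2 0.15 ± 0.04 (adjusted p = 0.0348), lost with only the 6 libraries compared (0.14), without Control replicate 1 (0.14) or 2 (0.11), and without IsoLCA replicate 1 (0.13) or 3 (0.14). TCA libraries (230.2, 229 and 238 CPM) overlapped Control.

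Srxn1 (NM_029688, mm10 chr2:152105524-152111376, plus strand) had the largest estimated rise with LCA of the 10 genes, from few reads (95 to 245 counts per library). It was at 3.44, 3.01 and 3.18 CPM in Control and at 5.87, 6.87 and 5.38 CPM with LCA, a 1.88-fold rise (log2 0.91 ± 0.15, edgeR adjusted p = 2.77e-05). IsoAlloLCA libraries were at 5.32, 4.46 and 3.53 CPM, all above Control but widely spread (log2 0.48 ± 0.16, adjusted p = 0.0104). That call was lost without IsoAlloLCA replicate 1, the highest of the 3 (log2 0.33, adjusted p = 0.093). IsoLCA (4.20, 4.35 and 3.62 CPM), UDCA (4.44, 4.75 and 3.43 CPM) and TCDCA (4.66, 4.08 and 3.47 CPM) had log2 differences of 0.33, 0.40 and 0.35 that did not pass (adjusted p 0.207, 0.0756 and 0.153). UDCA passed without its replicate 3 (0.51) and with replicate numbers as a block (0.39). DehydroLCA (4.41, 3.35 and 3.63 CPM) and TCA (3.88, 3.01 and 3.40 CPM) overlapped Control.

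Prdx1 (NM_011034, mm10 chr4:116685599-116700000, plus strand) did not follow Srxn1 and Txnrd1 with LCA, where its libraries (367, 337 and 346 CPM) overlapped Control (367, 365 and 399 CPM; log2 -0.11 ± 0.06, edgeR adjusted p = 0.149). It was highest with IsoLCA (448, 410.1 and 417 CPM) and UDCA (414, 444 and 403 CPM), all 6 libraries above Control, at log2 0.17 and 0.16. Neither passed in edgeR as fitted (adjusted p = 0.0514 and 0.0507), but both were at the threshold. Both passed without the filter (0.0239 and 0.0407), with replicate numbers as a block (0.0334 and 0.0333) and without Control replicate 3 (log2 0.21 and 0.20). IsoLCA also passed with DESeq2 (0.0474) and without IsoLCA replicate 2 (log2 0.20), and UDCA with only the 6 libraries compared (0.0453). With IsoAlloLCA (381, 309 and 341 CPM) the adjusted p was 0.0495 at log2 -0.13 ± 0.06, although the libraries overlapped Control, and the call was lost with only the 6 libraries compared (-0.13), without Control replicate 3 (-0.10) and without IsoAlloLCA replicate 2 (-0.06) or 3 (-0.13).

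Nqo1 encodes a quinone reductase that is often used as the reporter of NRF2 activity, and Hmox1 encodes the haem oxygenase that opens the haem ring. Both lie on chromosome 8 (Nqo1, NM_008706, mm10 chr8:107388225-107403205, minus strand; Hmox1, NM_010442, mm10 chr8:75093618-75100593, plus strand). Nqo1 rested on 45 to 132 counts per library. It was at 2.35, 1.55 and 1.80 CPM in Control and at 3.24, 3.59 and 3.61 CPM with LCA, a 1.83-fold rise (log2 0.87 ± 0.18, edgeR adjusted p = 0.000356). TCDCA (3.06, 2.91 and 2.16 CPM), UDCA (2.61, 2.81 and 2.31 CPM) and DehydroLCA (3.21, 2.34 and 1.99 CPM) overlapped Control, with log2 differences of 0.52, 0.45 and 0.41 that did not pass (adjusted p 0.0654, 0.0968 and 0.232). TCDCA passed without the filter (log2 0.51, adjusted p = 0.0471), with replicate numbers as a block (0.51), without Control replicate 1 (0.69) and without TCDCA replicate 3 (0.65). UDCA passed without Control replicate 1 (0.61). IsoAlloLCA libraries, at 1.60, 1.45 and 1.67 CPM, reached below the lowest Control library (log2 -0.27, adjusted p = 0.258). IsoLCA (2.57, 2.25 and 1.92 CPM) and TCA (1.99, 1.44 and 2.22 CPM) overlapped Control as well.

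Hmox1 rose with LCA and fell with TCDCA. Control libraries were at 6.47, 8.61 and 8.62 CPM, LCA libraries at 10.7, 11.6 and 12.04 CPM, and TCDCA libraries at 6.29, 5.48 and 5.29 CPM, so that Control replicate 1 lay close to TCDCA. The rise with LCA was 1.45-fold (log2 0.53 ± 0.11, edgeR adjusted p = 0.000607). Macrophages express Hmox1 strongly. The summed macrophage marker level was 3.63 to 3.87 CPM in LCA against 2.68 to 3.47 CPM in Control, and its part in this result was not tested. The fall with TCDCA, to 0.719 of Control (log2 -0.48 ± 0.12, adjusted p = 0.0119), was lost without Control replicate 2 (-0.41) or 3 (-0.41) and without TCDCA replicate 2 (-0.45) or 3 (-0.43). UDCA (6.40, 7.44 and 5.07 CPM) and TCA (6.90, 5.65 and 6.10 CPM) overlapped Control at log2 -0.32 and -0.35 (adjusted p 0.0692 and 0.329). The UDCA difference passed without the filter (-0.33), without Control replicate 1 (-0.45) and without UDCA replicate 2 (-0.47). IsoLCA (8.06, 7.91 and 9.80 CPM), IsoAlloLCA (8.62, 9.49 and 9.75 CPM) and DehydroLCA (9.25, 9.22 and 8.54 CPM) lay between Control and LCA or within Control, and none passed.

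G6pdx encodes glucose-6-phosphate dehydrogenase, the entry enzyme of the pentose phosphate pathway and a source of NADPH (NM_008062, mm10 chrX:74409486-74429161, minus strand). It fell with 5 of the 7 acids. LCA, DehydroLCA, UDCA and TCDCA are among them, the 4 acids that with IsoLCA raised Nfe2l2, Gclc, Gclm and Txnrd1. Control libraries were at 86.4, 88.5 and 92.4 CPM, LCA at 79.6, 71.4 and 73.1 CPM, IsoAlloLCA at 78.4, 67.5 and 75.2 CPM, TCDCA at 75.0, 74.9 and 77.4 CPM, UDCA at 78.0, 73.8 and 77.9 CPM and DehydroLCA at 80.4, 81.2 and 75.0 CPM. All 15 treated libraries were below the lowest Control library. The log2 changes were -0.25 ± 0.05 with LCA (edgeR adjusted p = 0.000241), -0.27 ± 0.05 with IsoAlloLCA (adjusted p = 3.93e-05), -0.23 ± 0.05 with TCDCA (adjusted p = 0.00208) and -0.22 ± 0.05 with UDCA (adjusted p = 0.00254). The DehydroLCA change (-0.18 ± 0.05, adjusted p = 0.0311) was lost without Control replicate 2 (-0.18) or 3 (-0.15) and without DehydroLCA replicate 1 (-0.19) or 3 (-0.14). IsoLCA libraries (85.4, 80.9 and 85.5 CPM) were below Control without passing (log2 -0.09, adjusted p = 0.325), and TCA libraries (88.0, 86.9 and 82.5 CPM) overlapped it. The retrogene G6pd2, a near copy that could take reads, held 1 to 11 counts per library.

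The 7 comparisons share the same 3 Control libraries, so their counts are set side by side and not taken as repeats of each other. With IsoLCA 4 of the 10 genes rose and 0 fell, where 9.84% of all tested genes were called, 3.73% higher and 6.12% lower. With DehydroLCA 4 rose and 1 fell, where 5.83% of all genes were called, 2.41% higher and 3.41% lower. With UDCA 4 rose and 1 fell, where 19.9% of all genes were called, 9.18% higher and 10.7% lower. With TCDCA 4 rose and 2 fell, where 13.1% of all genes were called, 5.08% higher and 8.04% lower. For each of these 4 acids the genes that rose were Nfe2l2, Gclc, Gclm and Txnrd1. With IsoAlloLCA 2 rose and 4 fell, where 58.4% of all genes were called, 30.6% higher and 27.8% lower. The share of the 10 genes called with IsoAlloLCA was thus close to that of all genes. With TCA 0 of the 10 were called by edgeR or by DESeq2, where 0.437% of all genes were called by edgeR. Of the 10 genes 3 had an unadjusted edgeR p below 0.05. The share of all genes below that unadjusted level is not given here, so this count has no background beside it. The widest of the TCA intervals for the log2 change ran from -0.42 to 0.40 for Nqo1, and the interval for Gclm ran from -0.01 to 0.22. The number called dropped to 2 for IsoLCA without Control replicate 2 or IsoLCA replicate 3. For DehydroLCA it dropped to 2 without Control replicate 2 or DehydroLCA replicate 1, and to 3 without Control replicate 3.

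**Figure D2:**
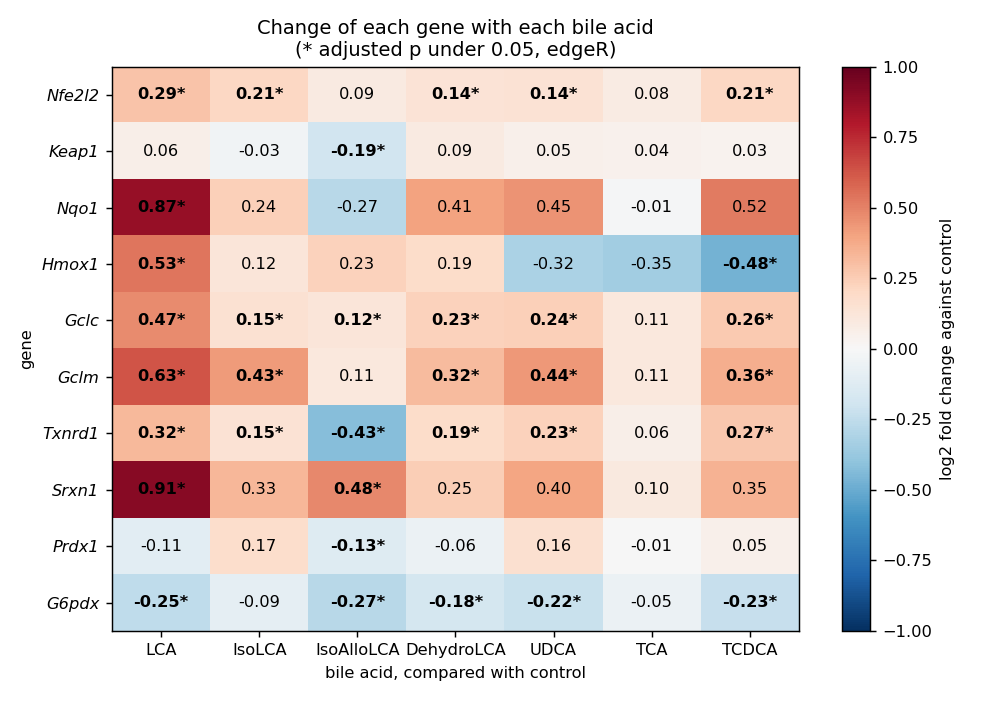
Log2 fold change against Control (colour scale) of each gene (rows) with each acid (columns), from edgeR on all 24 libraries, with an asterisk where the adjusted p was below 0.05. LCA shows 7 rises and 1 fall, Nfe2l2, Gclc, Gclm and Txnrd1 also rise with IsoLCA, DehydroLCA, UDCA and TCDCA, and TCA shows no call.

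Related acids were compared directly at equal dose in 5 pairs, with adjusted p-values over all tested genes of each pair; the p-values adjusted over the genes of all 5 pairs together are given where they change a call. The pairs that set IsoLCA, DehydroLCA and UDCA against LCA share the same LCA libraries, so they are not repeats of each other. Those LCA libraries lay above all 21 other libraries for 6 of the 10 genes. For these genes, lower levels than with LCA follow from that. IsoLCA is the epimer of LCA at its single hydroxyl. Of the 10 genes 6 were lower and 2 higher with IsoLCA than with LCA (30.3% of all genes were called, 14.6% lower and 15.8% higher). Gclc was at 55.8 to 58.1 CPM with IsoLCA against 68.2 to 75.1 CPM with LCA (log2 -0.32 ± 0.04, edgeR adjusted p = 4.76e-06), and Nqo1 at 1.92 to 2.57 against 3.24 to 3.61 CPM (log2 -0.63 ± 0.17, adjusted p = 0.00613). Srxn1 (-0.58), Hmox1 (-0.41), Gclm (-0.20) and Txnrd1 (-0.18) were lower too. Prdx1 was higher with IsoLCA (log2 0.28 ± 0.06, adjusted p = 0.000637), as was G6pdx (0.17 ± 0.05, adjusted p = 0.0118), the last call being lost without LCA replicate 2 (0.14). Nfe2l2 did not pass, with a 95% interval of -0.16 to -0.0037 for the log2 difference, nor did Keap1, with an interval of -0.18 to -0.01, which passed without LCA replicate 1 (-0.13).

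DehydroLCA carries a ketone in place of the hydroxyl of LCA, and 6 of the 10 genes were lower with it than with LCA (17.8% of all genes were called, 7.49% lower and 10.3% higher). Srxn1 differed by log2 -0.67 ± 0.14 (3.35 to 4.41 CPM against 5.38 to 6.87 CPM, edgeR adjusted p = 0.00200), Gclm by -0.31 ± 0.05 (adjusted p = 0.000190) and Gclc by -0.24 ± 0.04 (adjusted p = 0.000256), while Nfe2l2 differed by -0.15 ± 0.04 (adjusted p = 0.00768). The calls of Hmox1 (-0.35, adjusted p = 0.0307) and Txnrd1 (-0.14, adjusted p = 0.0288) depended on single libraries. Hmox1 lost its call without LCA replicate 2 (-0.34) or 3 (-0.31) or any DehydroLCA replicate (-0.37 to -0.31), and Txnrd1 without any one of the 6 libraries (-0.15 to -0.13). Nqo1 (-0.47, interval -0.81 to -0.12, adjusted p = 0.0545) passed when adjusted over all 5 pairs (0.0382) and without the filter (-0.47). It also passed with replicate numbers as a block (-0.47), with only the 6 libraries compared (-0.47) and without DehydroLCA replicate 1 (-0.68). The intervals for Keap1 (-0.06 to 0.11), Prdx1 (-0.07 to 0.17) and G6pdx (-0.02 to 0.18) included 0.

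UDCA has a further hydroxyl that LCA lacks. Of the 10 genes 5 were lower and 1 higher with UDCA than with LCA (26.9% of all genes were called, 12% lower and 14.8% higher). Hmox1 showed the largest difference of any pair, 5.07 to 7.44 CPM with UDCA against 10.7 to 12.04 CPM with LCA (log2 -0.85 ± 0.12, edgeR adjusted p = 5.99e-06). Gclc (-0.24 ± 0.04), Gclm (-0.19 ± 0.05), Nfe2l2 (-0.14 ± 0.04) and Srxn1 (-0.51 ± 0.14) were lower, and Prdx1 was higher (0.26 ± 0.06, adjusted p = 0.00109). The Srxn1 call was lost without LCA replicate 2 (-0.42) or UDCA replicate 3 (-0.39). Txnrd1 did not pass (-0.10, interval -0.19 to -0.01), nor did Nqo1 (interval -0.77 to -0.08), Keap1 (-0.10 to 0.07) or G6pdx (-0.07 to 0.14). Txnrd1 (-0.09) and Nqo1 (-0.42) passed with only the 6 libraries compared. Nqo1 also passed without the filter (-0.43) and with replicate numbers as a block (-0.43).

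IsoAlloLCA and IsoLCA differ in configuration at the junction of their first rings. With IsoAlloLCA 7 of the 10 genes were lower and 0 higher (59.8% of all genes were called, 28.1% lower and 31.7% higher). Txnrd1 differed most, 151 to 178 CPM against 240.1 to 250.2 CPM (log2 -0.57 ± 0.04, edgeR adjusted p = 6.91e-11), followed in adjusted p by Gclm (-0.32 ± 0.05, 1.27e-05) and Prdx1 (-0.31 ± 0.06, 5.35e-05). Keap1 (-0.16, adjusted p = 0.00174) and G6pdx (-0.19, adjusted p = 0.00205) were lower too. Nfe2l2 (-0.12) and Nqo1 (-0.51) were lower by less secure margins. The Nfe2l2 call was lost without IsoAlloLCA replicate 3 (-0.10) and with only the 6 libraries compared (-0.12). The Nqo1 call was lost without IsoAlloLCA replicate 2 (-0.45) or IsoLCA replicate 1 (-0.40), and when adjusted over all 5 pairs (0.0530). The intervals for Srxn1 (-0.16 to 0.45), Hmox1 (-0.13 to 0.34) and Gclc (-0.12 to 0.06) included 0.

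TCA has a hydroxyl that TCDCA lacks, and both were given at 100 µM. Gclc (-0.15 ± 0.04, edgeR adjusted p = 0.0435), Gclm (-0.26 ± 0.05, adjusted p = 0.00569) and Txnrd1 (-0.21 ± 0.04, adjusted p = 0.00546) were lower with TCA than with TCDCA and G6pdx (0.18 ± 0.05, adjusted p = 0.0409) was higher, 4 of the 10 genes where 3.61% of all genes were called, 0.958% lower and 2.65% higher. The libraries did not overlap for Txnrd1, at 229 to 238 CPM with TCA against 258 to 279 CPM with TCDCA. This count was the least stable: it was 0 without TCDCA replicate 2, 1 without TCA replicate 2 or TCDCA replicate 1, and 2 without TCA replicate 1 or TCDCA replicate 3. Adjusted over all 5 pairs 6 were called, with Nfe2l2 (-0.13, 0.0127) and Nqo1 (-0.52, 0.0368) added. Nfe2l2 also passed with replicate numbers as a block (-0.13). The conjugated acids were given at a different dose from the unconjugated ones and were not compared with them.

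**Figure D3:**
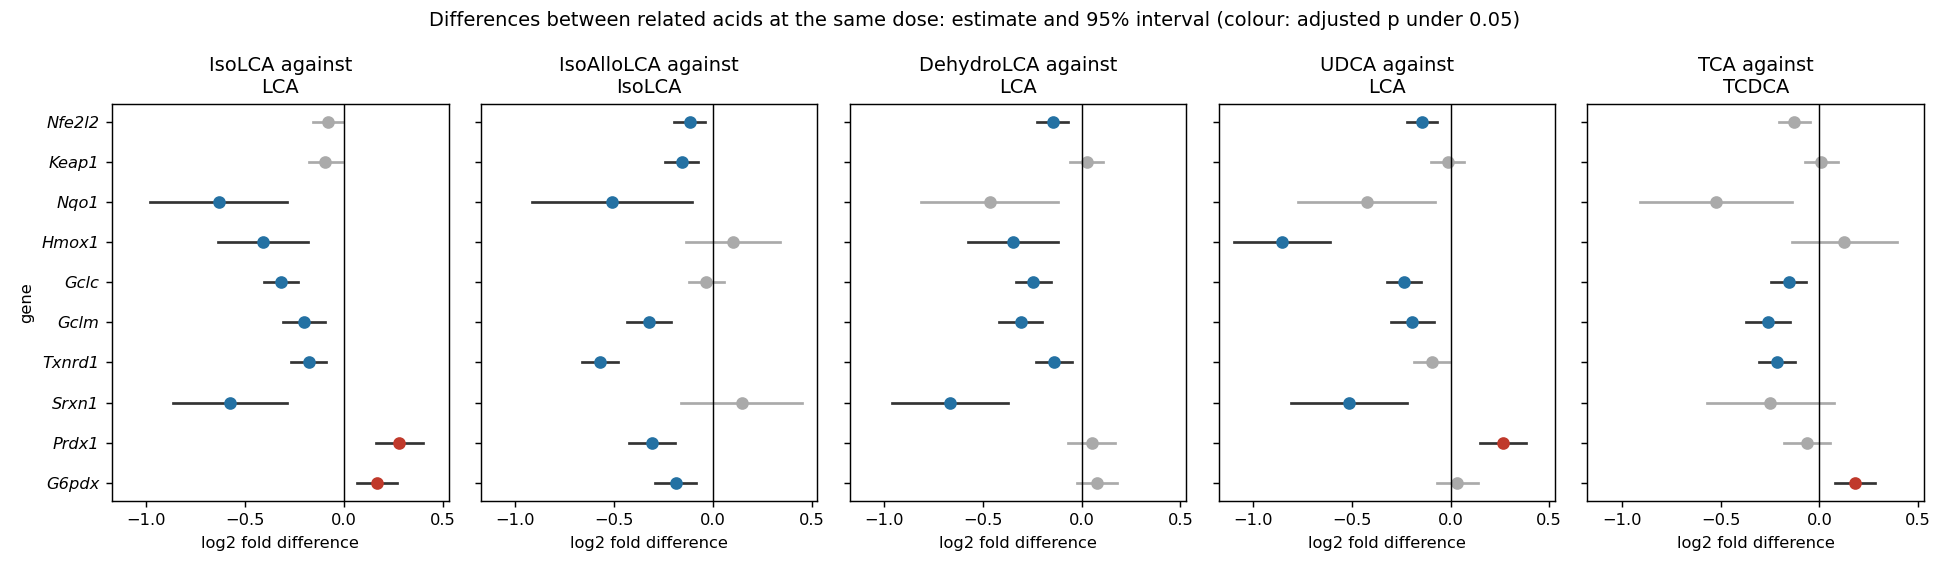
Log2 fold difference (horizontal axes) of each gene between related acids in 5 pairs, first-named minus second-named, with 95% intervals, coloured where the edgeR adjusted p was below 0.05. Most coloured points lie left of 0 in the panels that set IsoLCA, DehydroLCA and UDCA against LCA, and Prdx1 lies to the right for IsoLCA and UDCA. These panels share the same LCA libraries and are not repeats of each other.

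Other genes of the antioxidant system were called in both directions. Of 92 further genes in 6 lists 89 were tested. With LCA 18 rose and 31 fell, 55.1% called against 36.5% of all tested genes, and their median log2 change was -0.05 against 0.01. With IsoAlloLCA 25 rose and 31 fell, 62.9% called against 58.4% of all genes. With UDCA 6 rose and 16 fell (24.7% against 19.9%), with IsoLCA 6 and 9 (16.9% against 9.84%), with TCDCA 3 and 15 (20.2% against 13.1%), with DehydroLCA 3 and 4 (7.87% against 5.83%), and with TCA 0 and 0. The counts describe these genes, and the lists were not tested as sets. The shares of all genes called higher and lower with LCA, 17.7% and 18.8%, and with IsoAlloLCA, 30.6% and 27.8%, stand behind each list's count below.

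Among 13 regulators and partners of NRF2, 6 rose and 3 fell with LCA, and 6 rose and 4 fell with IsoAlloLCA. Nfe2l1, a relative of NRF2, rose with LCA from 138 ± 10.3 to 191 ± 7.44 CPM (SD, n = 3; log2 0.47 ± 0.05, edgeR adjusted p = 2.1e-08). Sqstm1, whose product p62 binds KEAP1, rose by log2 0.28 ± 0.06 with LCA and 0.82 ± 0.06 with IsoAlloLCA, and fell by 0.19 with UDCA. Bach2, a repressor related to BACH1 that restrains effector differentiation of T cells, rose from 46.9 ± 3.80 to 108 ± 11.4 CPM with IsoAlloLCA (log2 1.20 ± 0.08, adjusted p = 3.4e-12), and fell with IsoLCA (log2 -0.30) and TCDCA (log2 -0.28). All 3 IsoAlloLCA libraries were above Control for Sqstm1 and Bach2.

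Genes that make and use glutathione (20 tested) were divided: 3 rose and 4 fell with LCA and 3 rose and 7 fell with IsoAlloLCA. Slc3a2, the shared heavy chain of the cystine and large amino acid transporters, rose with LCA from 282 to 411 CPM (log2 0.54 ± 0.04, edgeR adjusted p = 6.8e-10) and with DehydroLCA (0.21), and fell with IsoAlloLCA (-0.38). Mgst2, a membrane glutathione transferase, fell with LCA (-0.62), UDCA (-0.50), DehydroLCA (-0.31), IsoLCA (-0.23) and TCDCA (-0.19). Gpx4, which reduces lipid peroxides, fell with LCA (-0.39 ± 0.06) and UDCA (-0.28 ± 0.06).

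Of 17 other thioredoxin, peroxiredoxin and peroxide-removing genes, 2 rose and 8 fell with LCA, where 17.7% of all genes rose and 18.8% fell. Prdx5 fell with LCA (log2 -0.49 ± 0.05, edgeR adjusted p = 2.7e-08), UDCA (-0.24), IsoLCA (-0.20) and TCDCA (-0.19). Prdx4, a peroxiredoxin of the endoplasmic reticulum, fell with LCA (-0.47 ± 0.05), TCDCA (-0.37) and UDCA (-0.29), and rose with IsoAlloLCA (0.41 ± 0.05). The sestrins Sesn1 and Sesn3 rose with IsoAlloLCA by log2 0.76 ± 0.05 and 0.96 ± 0.08.

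Beside G6pdx, 13 further genes of NADPH supply were tested, and 6 fell with LCA, 7 with IsoAlloLCA, 4 with UDCA and 4 with TCDCA, against 2, 2, 1 and 1 that rose. Of all genes 18.8%, 27.8%, 10.7% and 8.04% fell with these acids. Pgd, the next NADPH-producing enzyme after G6pdx in the pentose phosphate pathway, was at 211 ± 6.56 CPM in Control and fell with LCA (log2 -0.32 ± 0.04, edgeR adjusted p = 4.1e-07), IsoAlloLCA (-0.39), UDCA (-0.18), TCDCA (-0.16) and IsoLCA (-0.12). Me2, a mitochondrial malic enzyme, fell from 231 to 162 CPM with LCA (log2 -0.51 ± 0.05). Tkt and Rpia, of the non-oxidative part of the pathway, fell with IsoAlloLCA by log2 0.39 and 0.69.

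In iron and haem handling (10 tested) 2 rose and 2 fell with LCA. Slc48a1, a haem transporter, rose with LCA (log2 0.26 ± 0.04), IsoLCA (0.18) and DehydroLCA (0.16), and Tfrc, the transferrin receptor, fell with LCA from 1568 to 1094 CPM (-0.52 ± 0.06, edgeR adjusted p = 1.5e-07). Of 16 reductases, conjugating enzymes and exporters 3 rose and 8 fell with LCA. Abcc1, an exporter of glutathione conjugates, rose with LCA (0.28 ± 0.04) and IsoAlloLCA (0.41 ± 0.04), and Nqo2, the relative of Nqo1, fell with LCA (-0.42 ± 0.06, adjusted p = 8.9e-06).

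**Figure D4:**
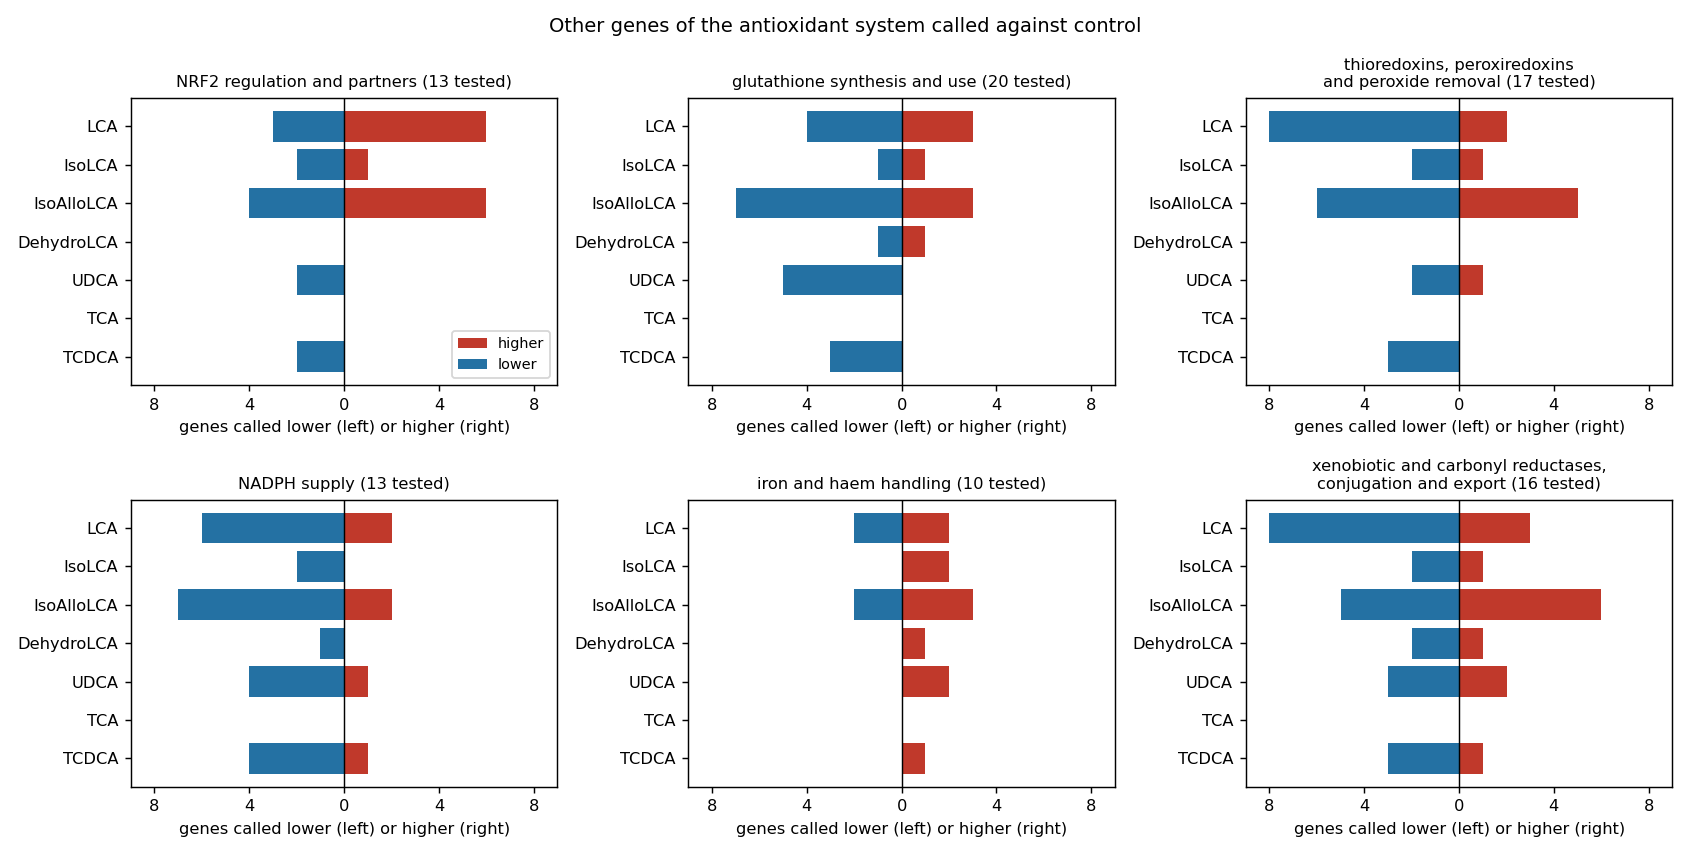
Number of genes called lower (left of 0) or higher (right of 0) against Control by edgeR in 6 lists of other antioxidant genes (panels), for each acid (rows). With LCA more genes fell than rose in 4 of the 6 panels, 8 against 2 among thioredoxins and peroxiredoxins and 8 against 3 among reductases and exporters, and TCA has no bar.

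Genes whose pattern over the 8 groups was most like those of the 3 widest-ranging members were ranked by the root mean square difference of centred group mean log2 CPM, over 9747 genes. Nqo1 (range of group means 1.13 on the log2 scale) lay nearest to Tnfrsf21 (difference 0.119), Chchd10 (0.120) and Slc25a33 (0.134), where the median gene differed by 0.343. Hmox1 (range 1.01) lay nearest to Slc14a1 (0.129), Marcksl1 (0.130) and Zbtb7b (0.142), with a median of 0.346. Srxn1 (range 0.90) lay nearest to Zbtb18 (0.0978), Nedd4 (0.108) and Ifi27 (0.119), with a median of 0.276. Zbtb18 differed from Control by log2 0.82 with LCA and 0.33 with IsoAlloLCA, beside 0.91 and 0.48 for Srxn1. The 10 genes were left out of this ranking, so none of them could appear among the 9 neighbours. Zbtb7b is also in the CD4 T cell marker list. The group means come from the same libraries, so these likenesses are descriptions.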

How the data were processed

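Libraries were prepared from kit-purified total RNA by an ultra-low input method, per the labels' protocols. The authors deposited 1 table of expected counts, made with HOMER over exons on mm10 without normalization, per the file headers. STAR, DESeq2 and GRCm38 are also named, without versions, in the submitters' processing notes, and a strand option is not stated. The deposited expected counts come in steps of 0.5 (29.43% are not whole) and were rounded for testing, upward at 0.5. The table has 393 genes with more than 1 copy.

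Groups and replicate numbers came from sample titles. edgeR 4.0.16 (R 4.3.3, limma 3.58.1) was fitted on 24 libraries with 1 coefficient per group, TMM scaling (0.971 to 1.05) and filterByExpr (13044 genes kept), with the quasi-likelihood test and Benjamini-Hochberg adjustment over all tested genes, called below 0.05. CPM use TMM-scaled totals, errors of log2 changes are SE and intervals are 95%. On simulated LCA against Control counts (13044 genes), 47% of 100 genes changed 1.2-fold and 78% of 100 changed 1.5-fold were called, and 4.58% of calls were unchanged genes. Only those genes were changed in the simulation, whereas 36.5% of tested genes were called with LCA in the data. The simulated rates therefore cannot be carried over to the LCA results. Replicate pairs differed beyond sampling noise (chi-square per degree of freedom 2.83 to 18.7).

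Named genes are the 10 members, up to 3 called genes per list and comparison with at least 10 CPM (smallest adjusted p first, from which examples are given) and 3 neighbours for each of 3 members. Members and lists were chosen with earlier results of these data known. Alternatives were DESeq2 1.42.0, RLE size factors, no filter, unrounded counts, a replicate block, only the 6 libraries compared, and each library left out.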

Additional observations from a re-analysis of the deposited data

How the results depend on the processing

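Of 1440 alternative values of the members' log2 changes, 1322 kept their direction and side of the threshold, 75 lost the call, 33 gained it and 10 changed sign. The 10 that changed sign did so on leaving out 1 library and were uncalled. Their results ranged from -0.0034 to 0.19 for Hmox1 with IsoLCA, from -0.15 to 0.16 for Nqo1, from -6.64e-05 to 0.18 for Srxn1 and from -0.032 to 0.032 for Prdx1 with TCA. The ranges were -0.0043 to 0.27 for Srxn1 between IsoAlloLCA and IsoLCA, -0.019 to 0.057 for Keap1 between DehydroLCA and LCA, and -0.056 to 0.020 for Keap1 between UDCA and LCA. The replicate block made 8 values pass and none fail. Replicate numbers share no stated source. Libraries of different groups with the same number correlated with a median of 0.038, against -0.015 for those with different numbers. With 3 numbers to choose from, 15 of 24 libraries correlated best with their own number. The main fit has no replicate block, and whether the numbers mark a shared batch was not tested.

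IsoLCA called 2 members with only the 6 libraries compared. Leaving out 1 library gave 2 to 4 members for IsoLCA, 2 to 5 for DehydroLCA and 0 to 4 for TCA against TCDCA. Over all genes it gave 815 to 1198 calls for IsoLCA, 400 to 625 for DehydroLCA, 1692 to 2219 for UDCA, 6 to 114 for TCA, 898 to 1628 for TCDCA, 2521 to 3897 for IsoLCA against LCA, 1189 to 2228 for DehydroLCA against LCA and 185 to 737 for TCA against TCDCA. TCA calls over all genes, 57, became 123 without the filter, 14 with only the 6 libraries compared and 103 with DESeq2. The cause was not tested. Depth limits Nqo1 and Srxn1, which rest on 45 to 245 counts per library.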

Other observations

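Osgin1, an oxidative stress-induced growth inhibitor that is often listed among NRF2 targets, went the other way from Srxn1 and Gclm. It was below the 10 CPM required of named genes and was chosen after its values were seen. It was at 2.54 ± 0.42 CPM in Control (SD, n = 3) and fell with IsoAlloLCA (0.294 ± 0.0299 CPM, log2 -3.08 ± 0.25), IsoLCA (0.308 ± 0.0746 CPM, log2 -3.00 ± 0.23), LCA (0.411 ± 0.144 CPM, log2 -2.59 ± 0.22), DehydroLCA (0.806 ± 0.148 CPM, log2 -1.64 ± 0.20) and UDCA (0.908 ± 0.211 CPM, log2 -1.47 ± 0.20), by edgeR. With TCDCA (log2 -0.49, adjusted p = 0.0631) and TCA (log2 -0.28, adjusted p = 0.684) it did not pass. All libraries of the 5 acids with a call lay below all Control libraries.

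Maff, a small MAF partner of NRF2 with few reads, fell with LCA (log2 -0.39 ± 0.15, edgeR adjusted p = 0.0413), IsoLCA (-0.66 ± 0.15, 0.0046), UDCA (-0.67 ± 0.16, 0.0033) and TCDCA (-0.50 ± 0.15, 0.0302), and rose with IsoAlloLCA (0.98 ± 0.13) from 3.00 ± 0.17 to 5.92 ± 0.92 CPM. It too was below 10 CPM and chosen after its values were seen.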
